A study of Mus musculus with 18 samples.

Results

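Mitochondrial ribosomal proteins were followed across lungs of 3 mouse lines in which a growth or mitochondrial gene was deleted in the epithelium. The genes are those whose symbol begins with Mrpl or Mrps and a number and whose mean was at least 50 normalised read counts in each of the 3 tables. The pattern matched 76 of the 23416 gene symbols in each table, and all 76 reached the level, so the cutoff removed none. There were 47 genes named Mrpl, for the large subunit, and 29 named Mrps, for the small subunit. The lowest of them had a mean of 335 normalised read counts in the Rptor table, 289 in the Tfam table and 353 in the Cox10 table, all far above the cutoff, and the highest had means of 2062, 2937 and 2274. Every one was tested in every line. No measured difference between groups entered this rule, but the set was chosen with earlier results of these data known.

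The mitochondrial ribosome, or mitoribosome, translates the few messages of mitochondrial DNA, which encode core subunits of the respiratory chain. Its ribosomal RNAs are made inside the organelle from mitochondrial DNA, whereas all of its proteins are encoded in the nucleus, made in the cytosol and imported, so that a mitoribosome needs products of both genomes. Rptor encodes Raptor, the scaffold of mTOR complex 1 (mTORC1), a kinase complex that couples nutrients and growth factors to protein synthesis and mitochondrial function. Tfam packages and transcribes mitochondrial DNA, so that mitochondrial ribosomal RNA depends on it. Cox10 makes an intermediate of haem A, the cofactor of cytochrome oxidase, and is needed for respiratory complex IV. The 3 deleted genes thus act in growth control, in the upkeep and expression of the mitochondrial genome, and in the making of a single respiratory complex, and the comparisons ask how transcripts of nuclear mitoribosomal genes stood after each.

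Whole embryonic lungs were taken at 14.5 dpc, when the airway tree is still branching, and their RNA was sequenced. Each of the 6 groups had 3 samples, 18 in all. Rptor-deficient lungs were Rptorf/f; ShhCre/+ and their littermate controls Rptorf/+; ShhCre/+, and the Tfam and Cox10 lines were built in the same way, as Tfamf/f; ShhCre/+ against Tfamf/+; ShhCre/+ and Cox10f/f; ShhCre/+ against Cox10f/+; ShhCre/+. Controls therefore also carried 1 floxed allele and the Cre allele, which sits in the Shh gene and is active in the lung epithelium, so every lung had 1 altered Shh allele, and the mesenchyme, vessels and blood of a deficient lung kept the gene. The labels give no animal or library batch, so p-values measure only the spread between these samples. The 3 lines shared no control lungs.

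The values are read counts that the authors scaled by a size factor for each sample, and the whole reads behind them came to between 27673878 and 29702682 per sample. The targeted gene was still read in whole lungs. Rptor stood at 2298, 2224 and 2197 normalised counts in controls and 2442, 1986 and 2019.8 in deficient lungs, Tfam at 1057, 1063 and 1185 and 939.9, 994 and 1107, and Cox10 at 753, 812 and 824 and 809, 829 and 743. None of these differences passed the test, and the tables count reads over a whole gene, not over the deleted exons, so the level of the gene did not check the genotype. The lung epithelium was labelled by its markers in every sample, and the sum of 10 epithelial markers, Epcam, Cdh1, Nkx2-1 and Sftpc among them, was 43.9% of the control mean in Rptor-deficient lungs, 80.7% in Tfam-deficient and 81.1% in Cox10-deficient lungs. One Cox10-deficient lung, replicate 3, had epithelial markers at 26196 counts, above its controls at 25494 to 26003, whereas the other Cox10-deficient lungs had 17161 and 19279. One Tfam control, replicate 3, had a higher sum of the members and of cytosolic ribosomal proteins than the other Tfam controls. Without Cox10-deficient replicate 3 the epithelial sum of that line stood at 70.8% of control, and without Tfam control replicate 3 that of the Tfam line at 81.7%.

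In Rptor-deficient lungs the mitoribosomal protein transcripts were lower as a body. The sum of the 76 genes, per 1000000 counts of the sample total, was 3198, 3118 and 3165 in controls and 2603, 2791 and 2837 in Rptor-deficient lungs. Every deficient lung lay below every control, and the deficient mean was 86.8% of the control mean. Tfam controls had sums of 3002, 2928 and 3263 against 3031, 3039 and 3071 in Tfam-deficient lungs, and the groups overlapped. Cox10 controls had 3099.9, 3097 and 3190.3 against 3048, 3032 and 3089.9 in Cox10-deficient lungs, so that the deficient lungs lay just below their controls, with a mean at 97.7% of the control mean. Without Tfam control replicate 3 the Tfam-deficient mean was 102.8% of control instead of 99.4%, and without Cox10-deficient replicate 3 the Cox10-deficient mean was 97.2%.

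**Figure D1:**
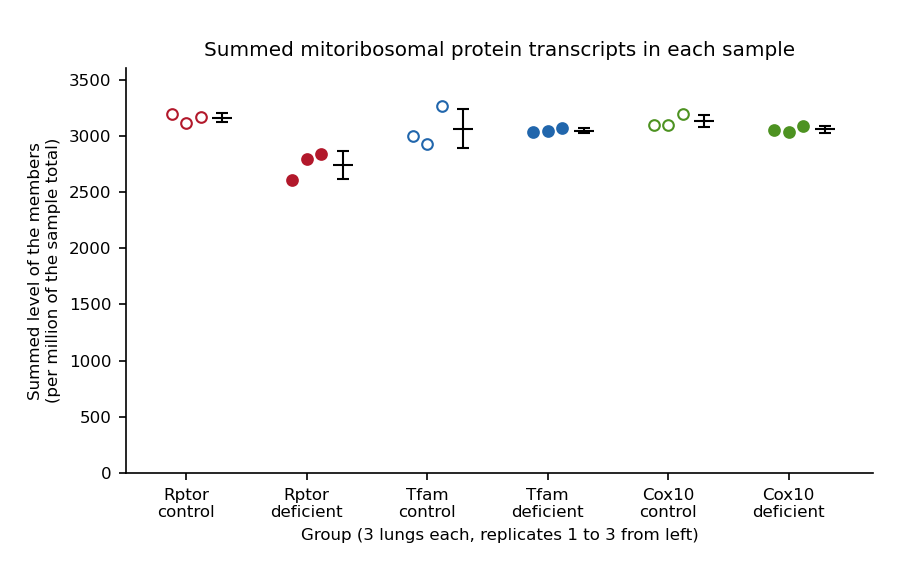
Summed level of the 76 mitoribosomal protein genes in each lung, per 1000000 counts of the sample total (y axis, from 0), by group (x axis). Circles are single lungs, open for control and filled for deficient, and the bar beside each group gives the mean with its SD (n = 3). The 3 Rptor-deficient lungs lie between 2603 and 2837, below all other samples.

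Gene by gene, 35 of the 76 fell and none rose in Rptor-deficient lungs (limma on log2 of the value + 1, Benjamini-Hochberg adjusted p below 0.05, two-sided). Over all 14937 genes tested in that line, 18.2% were lower and 16.6% higher at the same threshold, so 46.1% of the members called lower stood against a background of 18.2%. No member was higher at an unadjusted p under 0.05 either, and edgeR and DESeq2 on the reads also called 0 higher, with 32 and 33 lower. With the replicate number as a block 42 members were lower, against 20% of all genes. Same-numbered Rptor lungs deviated together, but no label pairs them and the pairing was taken from the values tested. Leaving out Rptor control replicate 1, 2 or 3 lowered the count of 35 to 23, 21 and 21 (30.3%, 27.6% and 27.6% of the members, against 13.3%, 12.8% and 13% of all genes in those fits), and 18 of the 35 stayed past the threshold whichever lung was left out. The median log2 fold change, deficient minus control and called log2 change from here on, was -0.21 over the members, against 0.01 over all genes tested, and 73 of 76 were negative. In 52 of the 76 (68.4%) all 3 deficient lungs lay below all 3 controls, against 26% of all genes tested, and in none did all lie above, against 24.3%. The falls were modest. Among the 35 genes the fitted change ran from -11.3% to -37.2% with a median of -17.5%, and only 4 passed a log2 fold change of -0.5. Since whole lungs were measured, fewer epithelial cells and less RNA in each cell cannot be told apart.

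Marker transcripts of other cell types and of proliferation also moved in the same lungs. Epithelial markers fell for 9 of 10 genes in Rptor-deficient lungs, with a median log2 fold change of -1.03 and summed counts of 40344 to 46465 in controls against 15270 to 22411 in deficient lungs. Proliferation markers fell for 6 of 6, with a sum at 79.2% of control. Mesenchymal markers rose for 5 of 10 and their sum stood at 192.7% of control. Also higher were 7 of 8 endothelial markers (131.2%), 7 of 7 macrophage markers in the table (161%) and 3 of 4 mesothelial markers (172.9%). The remaining mesothelial marker had a log2 fold change of -0.93 and did not pass, with all deficient lungs below all controls. Over all genes tested in the Rptor line 18.2% were lower and 16.6% higher. Of 4 red cell genes tested none passed, and of 6 neuronal and glial genes 1 fell. Deficient replicate 1 had the lowest epithelial sum, 15270, and the lowest sum of the members, 77071 counts, and replicate 3 had the highest of both, 22411 and 82876. The part of cell composition in the members' change was not tested. In the Tfam line 3 of 10 epithelial markers fell, where 2.63% of all genes did, and in the Cox10 line 1 of 10, where 0.335% did. In each of these lines 0 members were called.

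The Tfam and Cox10 lines had no member past the threshold in either direction. In the Tfam line limma called 0 higher and 0 lower, against 2.03% and 2.63% of 15050 genes, with 0 higher and 4 lower (5.26%, against 9.1% of all genes) at an unadjusted p under 0.05 and 0 by edgeR and by DESeq2. The median log2 fold change was 0.001 and 39 of 76 were positive. All Tfam-deficient lungs lay below all controls for 7 members, 9.21% against 11.8% of all genes, and above them for 0, against 10.9%. In the Cox10 line limma again called 0 higher and 0 lower, against 0.141% and 0.335% of 14934 genes, with 0 higher and 6 lower (7.89%, against 6.62% of all genes) at an unadjusted p under 0.05 and 0 by edgeR and by DESeq2. There the median was -0.05 with 59 of 76 negative, and all deficient lungs lay below all controls for 13 members (17.1% against 10.8%) and above for 2 (2.63% against 10.6%). Without Tfam control replicate 3, 4 members passed in the Tfam line, Mrpl4 and Mrpl41 lower and Mrpl13 and Mrpl28 higher, which is 2.63% of the members each way against 4.03% of all genes lower and 3.43% higher in that fit; without Cox10-deficient replicate 3 the counts in the Cox10 line stayed at 0.

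**Figure D2:**
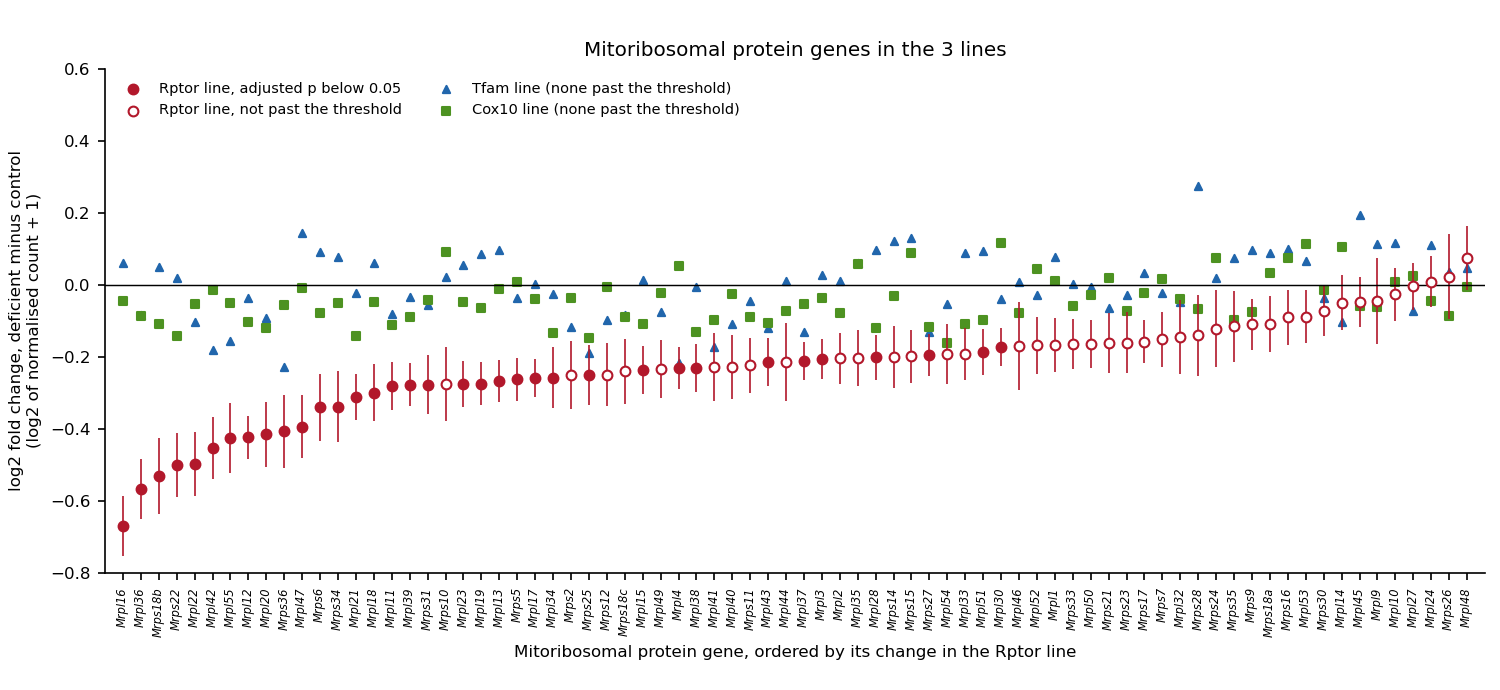
Log2 fold change of each of the 76 genes, deficient minus control (y axis), with genes ordered by their change in the Rptor line (x axis). Red circles are the Rptor line with the SE of the fit, filled for the 35 past the threshold, blue triangles the Tfam line and green squares the Cox10 line; the red circles run from -0.67 to 0.07 and the medians of the Tfam and Cox10 lines are 0.001 and -0.05, with 39 of 76 positive and 59 of 76 negative.

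The largest falls were those of Mrpl16, Mrpl36, Mrps18b, Mrps22, Mrpl22 and Mrpl42. Mrpl16, the counterpart of bacterial L16, a protein beside the transfer RNA sites of the large subunit, read 940.4, 950.1 and 937 normalised counts in controls and 537, 599 and 643 in Rptor-deficient lungs. The controls lay within a few counts of each other and every deficient lung was well below them, with a log2 change of -0.67 ± 0.083 (SE of the fit) and adjusted p = 0.000695 by limma. In the Tfam line it read 692, 731 and 889 against 784, 801 and 814, and in the Cox10 line 803, 859 and 855 against 897, 779 and 768, with overlapping groups in both.

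Mrpl36, the counterpart of the small bacterial protein L36, read 928, 945 and 893 in controls and 563, 665 and 642 in Rptor-deficient lungs. The groups did not overlap and the log2 change was -0.57 ± 0.083 (SE of the fit), adjusted p = 0.00148 by limma. Of its exon bases 2.58% are shared with the neighbouring complex I gene Ndufs6 on the other strand. Mrpl22, whose bacterial relative L22 lines the tunnel through which the new peptide leaves, read 718, 709 and 777 against 472, 557 and 535, again without overlap, a log2 change of -0.50 ± 0.089 (SE of the fit) with adjusted p = 0.00363 by limma. Mrpl42, a protein of the mitochondrial large subunit with no bacterial counterpart, read 2118, 2045 and 2003 against 1715, 1358 and 1452, a log2 change of -0.45 ± 0.087 (SE of the fit) with adjusted p = 0.00499 by limma. It was the only one of the 6 whose groups were also apart in another line, at 2108, 2114 and 2293 in Tfam controls and 1925, 1893 and 1923 in Tfam-deficient lungs, although that log2 change of -0.18 did not pass (adjusted p = 0.119 by limma).

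Proteins of the small subunit took 2 of the 6 places. Mrps22, which belongs to the mitochondrion only, read 895, 946 and 955 in controls and 582, 695 and 704 in Rptor-deficient lungs, with a log2 change of -0.50 ± 0.09 (SE of the fit) and adjusted p = 0.00368 by limma. Mrps18b read 686, 706 and 666 against 406, 499 and 527, a log2 change of -0.53 ± 0.11 (SE of the fit) with adjusted p = 0.00603 by limma. Deficient replicate 1 was the lowest lung for both genes. Mrps18b is 1 of 3 mammalian relatives of bacterial S18, and the paralogues had different values. Mrps18c read 1382, 1164 and 1285 against 978, 1105 and 1160.1, without overlap but not past the threshold (adjusted p = 0.0679 by limma), and Mrps18a, which sits in the large subunit despite its name, read 1099, 1060.0 and 1215 against 1065, 972 and 1092 with overlapping groups (adjusted p = 0.315 by limma). Whether the paralogues differ from each other in their change was not tested. All 6 leading genes stayed past the threshold when any 1 of the 6 Rptor lungs was left out, with the highest adjusted p among those fits at 0.0301, for Mrps18b (limma).

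**Figure D3:**
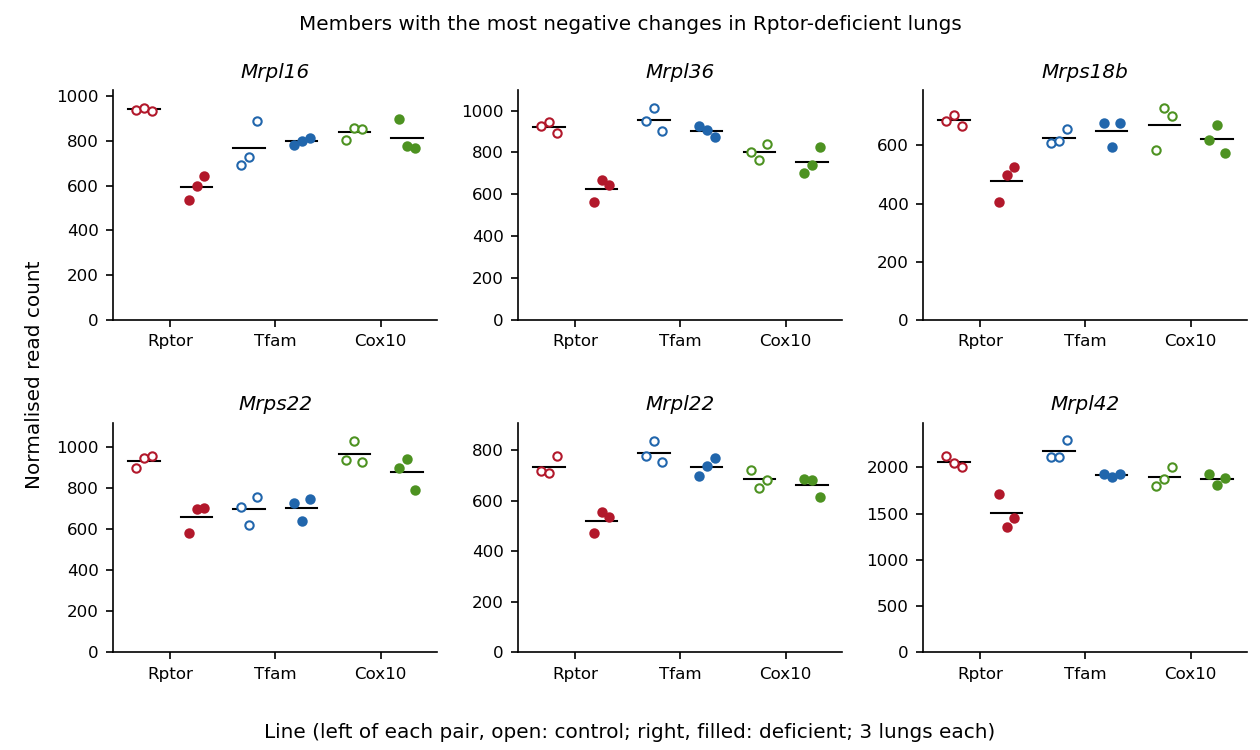
Normalised read counts (y axis, from 0) of the 6 members with the most negative log2 fold change in Rptor-deficient lungs, for each line (x axis). Open circles are control lungs, filled circles deficient lungs and black bars the mean of 3; in the Rptor line the groups are apart for all 6 genes, as with Mrpl16 at 937 to 950 counts against 537 to 643.

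Other members are given along the structure of the particle. Among the genes of the stalk, which recruits the translation factors, Mrpl12, the counterpart of bacterial L7/L12, read 2237, 2176 and 2275 in controls and 1588, 1633 and 1768 in Rptor-deficient lungs, a log2 change of -0.42 ± 0.061 (SE of the fit) with adjusted p = 0.00135 by limma. Its stalk partner Mrpl11 read 1775, 1922 and 1751 against 1411, 1563 and 1509.9, a log2 change of -0.28 ± 0.066 (SE of the fit), adjusted p = 0.012 by limma. Both fell without overlap. Mrpl10, which anchors L7/L12 to the particle, read 2124, 1813 and 1995 against 1873, 1893 and 2051, overlapped, and had a log2 change of -0.03 ± 0.073 (SE of the fit) (adjusted p = 0.808 by limma). Mrpl53, the other stalk gene, did not pass, and with 4 genes a count is not read against the 18.2% of all genes that were lower.

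Of the 8 genes whose products lie near the exit of the peptide tunnel, 5 fell (62.5%, against 18.2% of all genes), namely Mrpl17, Mrpl22, Mrpl23, Mrpl39 and Mrpl47, and the 8 had log2 fold changes from -0.50 to 0.01. Mrpl44, another of the 8, read 908, 980.1 and 958 in controls and 692, 843 and 933 in Rptor-deficient lungs, where deficient replicate 3 reached the controls (adjusted p = 0.155 by limma). Mrpl3, a core protein near the peptidyl transferase centre, read 1952, 1988 and 1865 against 1637, 1688 and 1709, a log2 change of -0.21 ± 0.056 (SE of the fit) with adjusted p = 0.0214 by limma. It lay lower in every deficient lung, by a small amount, and the call was lost without Rptor control replicate 1 or 2 or Rptor-deficient replicate 2 (adjusted p from 0.054 to 0.072 by limma).

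In the small subunit, Mrps5, the counterpart of a bacterial protein that guards decoding accuracy, read 1881, 1922 and 1984 against 1679, 1617 and 1531, a log2 change of -0.26 ± 0.059 (SE of the fit) with adjusted p = 0.0103 by limma. Mrps12, the counterpart of the streptomycin-related protein S12 at the decoding site, read 809, 698 and 753 against 618, 598 and 684. Its groups did not overlap, but the log2 change of -0.25 ± 0.088 (SE of the fit) missed the threshold (adjusted p = 0.0552 by limma), whereas with the replicate number as a block it passed, at an adjusted p of 0.0435. Mrps36 is listed here by its name only, since its product is now known as a part of the 2-oxoglutarate dehydrogenase complex. It read 558, 652 and 559 against 399.7, 469 and 464 (adjusted p = 0.016 by limma), and without it 34 of 75 fell (45.3%, against 18.2% of all genes); its own call was lost without Rptor control replicate 2 (adjusted p = 0.0633 by limma).

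By symbol, 26 of 47 Mrpl genes (55.3%) and 9 of 29 Mrps genes (31%) fell in Rptor-deficient lungs, against 18.2% of all genes. The medians of the Mrpl and Mrps genes were -0.22 and -0.20. The symbol is not in every case the subunit, and Mrps18a and Mrps36 are examples of exceptions counted with the Mrps genes. The summed counts of the Mrpl genes stood at 85.5% of control and those of the Mrps genes at 87%. Of the 48 members with a bacterial relative 23 fell (47.9%, median -0.23), and of the 27 without one 11 fell (40.7%, median -0.20). Neither split was tested. Members that fell had a higher median control value than members that did not pass, 1407 against 1029 normalised counts, and a smaller median SE, 0.067 against 0.08 on the log2 scale. Of the 41 that did not pass, 38 were also negative.

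A few members were not lower. Only Mrpl48, Mrps26 and Mrpl24 had a positive log2 fold change in the Rptor line, and none was past the threshold. Mrpl48 read 1108, 917 and 1031 in controls and 1013, 1048 and 1153 in Rptor-deficient lungs, at a log2 change of 0.07 ± 0.088 (SE of the fit). Mrpl27 read 1022, 1006 and 1058 against 993, 1008 and 1078, at a log2 fold change that rounds to 0. These 4 genes were picked after their values were seen.

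Coding neighbours overlap several of these genes, and whether reads were counted by strand is not given in the sources used here. The exons of 20 members share bases with another coding gene in GENCODE vM21, 5 of them over at least 20% of their length (Mrps34, Mrps25, Mrpl19, Mrpl24 and Mrpl47), and the values of those 5 are uncertain for that reason. Among the 56 members with no shared bases, 26 fell (46.4%, against 18.2% of all genes). The size of the change in the Rptor line had little relation across the 76 genes to log2 exon length (Pearson r = 0.087) or GC content (r = 0.0029). The same held for the log2 mean of the Rptor controls (r = 0.074), which also enters the change itself. Genes are not independent replicates here, and all values come from the same 6 libraries.

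Levels per length, as the mean value per kilobase of exon, were ordered within each table, since the tables were normalised separately. In the Rptor table Mrps21 (1402 counts per kilobase), Mrpl18 (1340.2) and Mrpl34 (1315) were highest and Mrps10 (76.3) lowest. The Tfam table had Mrpl34 (2261) and Mrpl54 (1752) highest and Mrpl33 (63.5) lowest, and the Cox10 table had Mrpl12 (1448) and Mrpl34 (1438) highest and Mrps35 (95.5) lowest, so the order was not the same in the 3 tables. The genes described next were chosen by the mean over the 3 tables, an order in which the Tfam table, with the widest range, weighs most. Exon length here is the union over all annotated transcripts, so long minor isoforms lower a gene's value. Of the 3 highest by that mean, Mrpl34, Mrpl54 and Mrpl12, Mrpl34 read 838, 827 and 945 against 712, 687 and 782 and fell (adjusted p = 0.0436 by limma), but the call was lost without Rptor control replicate 1, 2 or 3 or Rptor-deficient replicate 1 or 2 (adjusted p from 0.0646 to 0.155 by limma), and with no filter on low values (0.0527), with equal sample totals (0.0518) and by edgeR (0.0502). Mrpl54 read 1085, 1009 and 1114 against 850.5, 1015 and 946 and did not pass (adjusted p = 0.104 by limma). Of the 3 lowest, Mrps10, Mrpl33 and Mrps35, none passed, and Mrps10, at 598, 687 and 743 against 509, 594 and 569, came nearest (adjusted p = 0.0684 by limma) and passed with the replicate number as a block, at an adjusted p of 0.0294.

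Nuclear genes for mitochondrial proteins often carry sites for ETS-family factors such as GABP, for NRF1 and for YY1 near their start, so the promoters of the members were read for these letters. RefSeq windows of 250 bases before to 50 after the start (GRCm38.p6) were found for 67 of the 76 genes and for 27025 genes in all. The ETS letters CCGGAAG, on either strand, were in 24 of 67 members (35.8%), against 18.1% of the 10890 genes tested in the Rptor line that have a window and 9.93% of all. GCATGCGC, the core of the NRF1 site, was in 8 members (11.9% against 5.63% and 3.05%), and the YY1 letters AAGATGGCG were in 8 (11.9% against 3.16% and 1.64%). The E-box CACGTG, the site of MYC-type factors, was in 5 members (7.46% against 11.4% and 8.09%). No match of one motif overlapped a match of another in these windows. By call, ETS letters were in 11 of 29 against 13 of 38, NRF1 and YY1 letters in 4 of 29 against 4 of 38 each, and the E-box in 3 of 29 (10.3%) against 2 of 38 (5.26%), counting members that fell against members that did not pass. These shares were not tested against each other. These are descriptions of letters, not of bound sites.

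The 250 bases before the start are shown for 5 of the genes that fell most, with Mrpl10, which did not pass, for comparison; capitals mark the ETS, NRF1, YY1 and E-box letters on either strand, and all are 5′ to 3′ on the gene's own strand in GRCm38.p6. Mrpl16 (chr19:11770165-11770414, plus strand) has none of the 4 motifs, and Mrpl36 (chr13:73330759-73331008, plus strand) has an E-box and a YY1 match. Mrps18b (chr17:35916441-35916690, minus strand) has an NRF1 match far upstream, with others after the start that are not shown. Mrps22 (chr9:98601680-98601929, minus strand) has an ETS match next to its start, Mrpl22 (chr11:58171414-58171663, plus strand) an ETS and an NRF1 match, and Mrpl10 (chr11:97041332-97041581, plus strand) an NRF1 match. 
Mrpl16: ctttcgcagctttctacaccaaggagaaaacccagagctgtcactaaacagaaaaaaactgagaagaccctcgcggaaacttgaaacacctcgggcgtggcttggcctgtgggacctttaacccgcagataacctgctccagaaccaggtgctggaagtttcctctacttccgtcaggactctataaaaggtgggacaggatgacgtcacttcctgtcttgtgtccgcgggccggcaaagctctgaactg
Mrpl36: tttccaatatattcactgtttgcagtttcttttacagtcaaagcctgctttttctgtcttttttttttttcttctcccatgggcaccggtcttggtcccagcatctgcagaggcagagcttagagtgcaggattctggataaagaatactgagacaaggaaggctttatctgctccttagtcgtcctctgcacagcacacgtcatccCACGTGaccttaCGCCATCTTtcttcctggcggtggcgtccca
Mrps18b: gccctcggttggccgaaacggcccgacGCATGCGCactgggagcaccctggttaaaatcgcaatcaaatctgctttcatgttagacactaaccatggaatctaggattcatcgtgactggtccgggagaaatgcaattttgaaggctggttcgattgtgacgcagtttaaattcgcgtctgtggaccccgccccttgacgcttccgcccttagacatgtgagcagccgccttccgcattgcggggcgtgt
Mrps22: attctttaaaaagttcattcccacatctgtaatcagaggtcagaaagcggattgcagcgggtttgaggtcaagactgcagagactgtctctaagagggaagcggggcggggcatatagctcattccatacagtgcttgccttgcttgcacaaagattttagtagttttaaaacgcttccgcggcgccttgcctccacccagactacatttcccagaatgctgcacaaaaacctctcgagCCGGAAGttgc
Mrpl22: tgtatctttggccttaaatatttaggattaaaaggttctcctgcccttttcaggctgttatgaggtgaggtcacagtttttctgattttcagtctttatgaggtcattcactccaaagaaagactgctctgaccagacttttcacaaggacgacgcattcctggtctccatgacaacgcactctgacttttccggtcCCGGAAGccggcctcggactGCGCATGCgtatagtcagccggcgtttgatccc
Mrpl10: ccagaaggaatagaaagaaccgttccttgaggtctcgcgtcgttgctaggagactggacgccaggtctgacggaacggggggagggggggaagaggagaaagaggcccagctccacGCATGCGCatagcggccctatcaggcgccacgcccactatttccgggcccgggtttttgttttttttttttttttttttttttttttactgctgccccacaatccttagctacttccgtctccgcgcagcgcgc

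Whether a member's change differed between lines was tested directly, as the difference of the fold changes in 1 limma fit over all 18 samples and 14548 genes. Between the Rptor and Tfam lines, 9 members differed, all more negative in the Rptor line, against 6.35% of all genes lower and 4.83% higher (11.8% of the members lower, 0 higher). They were Mrpl16, Mrpl36, Mrps18b, Mrpl47, Mrps22, Mrpl19, Mrpl22, Mrpl12 and Mrps34. Of the 76 members, 73 had a negative difference, with a median of -0.20, and 33 (43.4%) had an unadjusted p under 0.05, against 28% of all genes. With the replicate number as a block 15 members differed (19.7%, against 8.96% of all genes lower). That block also paired the Tfam samples, whose numbers were not taken to pair them. By edgeR on the reads 9 were called (against 6.21%). The count ran from 4 without Tfam control replicate 2 or Tfam-deficient replicate 3, through 5 without Tfam control replicate 1, to 27 without Tfam control replicate 3. Of all genes, 3.49%, 3.88%, 4.56% and 9.39% were lower in those fits, beside 5.26%, 5.26%, 6.58% and 35.5% of the members.

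Mrpl16 had the largest difference, of -0.73 ± 0.13 (SE of the fit, adjusted p = 0.00143 by limma) on the log2 scale. The difference for Mrps18b was -0.58 ± 0.14 (SE of the fit, adjusted p = 0.0151 by limma). Mrpl47, a tunnel exit protein that shares 24.2% of its exon bases with Actl6a and Ndufb5, read 648, 645 and 618 against 437, 516 and 504 in the Rptor line and 485, 390.1 and 490.1 against 462, 492 and 550.3 in the Tfam line, a difference of -0.54 ± 0.14 (SE of the fit, adjusted p = 0.0182 by limma). Mrpl19, which shares 36% of its exon bases with Gcfc2, read 1436, 1359.7 and 1424 against 1167, 1136 and 1186 in the Rptor line, without overlap, and 1038, 1027 and 1136 against 1039, 1143 and 1218 in the Tfam line, with overlap, a difference of -0.36 ± 0.095 (SE of the fit, adjusted p = 0.0219 by limma). Both genes were lower in Rptor-deficient lungs, and in the Tfam line their log2 changes of 0.14 ± 0.11 (SE of the fit) and 0.09 ± 0.076 (SE of the fit) did not pass. The difference was lost for Mrpl47 without Tfam control replicate 2 or Tfam-deficient replicate 3 (adjusted p from 0.0526 to 0.0561 by limma), for Mrps22 without Tfam control replicate 2 or Tfam-deficient replicate 3 (adjusted p from 0.0565 to 0.0617 by limma), and for Mrpl19 without Tfam control replicate 1 or 2 or Tfam-deficient replicate 2 or 3 (adjusted p from 0.0511 to 0.0664 by limma). It was also lost in 9 of the 12 fits without 1 lung for Mrpl12 (adjusted p from 0.054 to 0.0992 by limma), in 8 for Mrps34 (0.0754 to 0.119) and in 5 for Mrpl22 (0.0568 to 0.0746), and for Mrpl22 with GC and length correction (0.107). Those of Mrpl16, Mrpl36 and Mrps18b were kept in all 12.

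Between the Rptor and Cox10 lines 5 members differed, Mrpl16, Mrpl36, Mrpl42, Mrpl22 and Mrpl4, all more negative in the Rptor line, against 4.21% of all genes lower and 3.28% higher (6.58% of the members lower, 0 higher). Of the 76 differences 71 were negative, with a median of -0.17, and 23 (30.3%) had an unadjusted p under 0.05, against 23% of all genes. The block gave 8 (10.5%, against 5.58% of all genes lower), but it also paired the Cox10 samples, whose numbers were not taken to pair them. By edgeR 5 differed (against 4.23%). Leaving out Cox10-deficient replicate 3, the lung with epithelial markers at the level of controls, gave 9 (11.8% of the members against 6.28% of all genes). The lowest count without 1 lung was 4 (5.26% of the members), in fits where 2.72% to 4.06% of all genes were lower. For Mrpl16 the difference was -0.63 ± 0.13 (SE of the fit, adjusted p = 0.00501 by limma) and for Mrpl42 -0.44 ± 0.099 (SE of the fit, adjusted p = 0.0107 by limma). With GC and length correction the difference for Mrpl22 was -0.41 and did not pass (adjusted p = 0.0516 by limma). Mrpl4 read 1592, 1588 and 1677 against 1341, 1364 and 1434 in the Rptor line and 1498, 1457 and 1533 against 1547, 1561 and 1550.0 in the Cox10 line, where every deficient lung lay above every control without passing the test. Its difference of -0.28 ± 0.082 (SE of the fit, adjusted p = 0.0424 by limma) was lost when any of these 12 lungs but Rptor-deficient replicate 3 or Cox10-deficient replicate 3 was left out (adjusted p from 0.0657 to 0.0931 by limma), and its call in the Rptor line was lost without Rptor control replicate 3 or Rptor-deficient replicate 2 (adjusted p from 0.0534 to 0.0723 by limma). In Tfam-deficient lungs Mrpl4 was among the lowest in log2 fold change, at 3310.0, 3285 and 2884 against 2852, 2736 and 2555 (adjusted p = 0.122 by limma).

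No member differed between the Tfam and Cox10 lines by limma, where 0.00687% of all genes were lower and 0.0481% higher and 1 member had an unadjusted p under 0.05, and edgeR called 0 as well. The 35 genes that fell in the Rptor line had a median log2 fold change of -0.28 there, -0.03 in the Tfam line with 20 negative, and -0.07 in the Cox10 line with 32 negative. Across the 76 genes, as a description over genes that share libraries, the log2 changes of Rptor correlated with those of Tfam at Pearson r = 0.28 and with those of Cox10 at 0.31, and Tfam with Cox10 at 0.098. Without Cox10-deficient replicate 3 the value for Rptor and Cox10 was 0.046, and without Tfam control replicate 3 that for Rptor and Tfam was 0.26.

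The genes that serve the mitoribosome were read beside its proteins. Of 5 mitoribosomal proteins with other names, 2 fell in Rptor-deficient lungs, Ptcd3 and Chchd1 (40%, against 18.2% of all genes). With 5 genes this count is not read as a result about the list. All 5 were negative with a median of -0.21. Of 27 genes for mitoribosome assembly and ribosomal RNA modification 22 were tested, of which 4 fell, Fastkd2, Noa1, Gtpbp10 and Grsf1, with a median of -0.09. That share equals the background of 18.2% of all genes, so the count is no result about the list. Fastkd2, an RNA-binding protein needed for the large subunit's ribosomal RNA, read 869, 961 and 953 in controls and 633, 745 and 722 in Rptor-deficient lungs, a log2 change of -0.41 ± 0.086 (SE of the fit) with adjusted p = 0.00755 by limma. None rose in either list.

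Of 15 mitochondrial translation factors 6 fell (40%, against 18.2% of all genes) and none rose, with a median of 0.006, so the list was split. The elongation factors Tufm, Tsfm and Gfm1 were all among the 6, with Taco1, Slirp and Lrpprc. Tsfm, which recharges the elongation factor Tufm, read 972, 814 and 944 against 651, 773 and 686, a log2 change of -0.37 ± 0.097 (SE of the fit) with adjusted p = 0.0187 by limma. Gfm1, the translocase of elongation, read 1340.3, 1542 and 1561 against 1088, 1192 and 1199, a log2 change of -0.35 ± 0.079 (SE of the fit) with adjusted p = 0.0101 by limma. Tsfm lost its call without Rptor control replicate 1 or 3 or Rptor-deficient replicate 3 (adjusted p from 0.0506 to 0.0704 by limma). Both genes changed differently in the Rptor and Tfam lines. The differences were -0.55 for Tsfm and -0.42 for Gfm1 (adjusted p = 0.0226 and 0.019 by limma). Against the Cox10 line neither difference passed (adjusted p = 0.181 and 0.249 by limma).

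Among 14 regulators of nuclear genes for mitochondria, 3 fell and 1, Esrra, rose in the Rptor line, shares of 21.4% and 7.14% against 18.2% and 16.6% of all genes, so the number that fell was near the background. Pprc1, a coactivator of the PGC-1 family that responds to growth signals, read 3709, 3678 and 3656 against 2500.4, 2711 and 2539.6, a log2 change of -0.51 ± 0.053 (SE of the fit) with adjusted p = 0.000334 by limma. Mycn, a MYC-family factor of the growing lung, read 1594, 1698 and 1716 against 1319, 1221 and 1383, a log2 change of -0.35 ± 0.068 (SE of the fit) with adjusted p = 0.0051 by limma. Tfb2m, a transcription factor of mitochondrial DNA, read 777, 755 and 818 against 546, 627 and 684, a log2 change of -0.35 ± 0.095 (SE of the fit) with adjusted p = 0.023 by limma, a call lost without Rptor control replicate 1, 2 or 3 or Rptor-deficient replicate 2 (adjusted p from 0.0517 to 0.0815 by limma). In the Tfam and Cox10 lines none of the genes in these 4 lists passed. Mycn was nonetheless lower in every deficient lung of both, at 1731, 1604 and 1740 in controls against 1443, 1490 and 1423 in the Tfam line (log2 change -0.22 ± 0.06 (SE of the fit), adjusted p = 0.0692 by limma) and 1980, 2207 and 2058 against 1572, 1871 and 1197 in the Cox10 line (-0.45 ± 0.14 (SE of the fit), adjusted p = 0.286 by limma). The Cox10 change was larger in size than that of the Rptor line, passed in the joint fit of 18 samples (adjusted p = 0.0338 by limma) and was -0.28 without Cox10-deficient replicate 3. The change of Mycn did not pass as different between the Rptor and Cox10 lines, at 0.10 ± 0.15 (SE of the fit, adjusted p = 0.751 by limma).

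Transcripts for proteins of the cytosolic ribosome were not lower as a body in Rptor-deficient lungs. Of 79 cytosolic ribosomal protein genes, chosen by symbol and the same level, 4 were lower (5.06%) and 5 higher (6.33%). Of all genes 18.2% were lower and 16.6% higher. The cytosolic genes had a median log2 fold change of 0.03. Of the 76 members 35 were lower and 0 higher, with a median of -0.21. The summed counts of the cytosolic genes stood at 102.7% of control, where those of the members stood at 86%. Of 44 complex I genes, whose products are a main customer of the mitoribosome, 11 (25%, against 18.2% of all genes) were lower and 1 (2.27%, against 16.6%) higher with a median of -0.14, and their sum stood at 91.9% of control. In the Tfam and Cox10 lines the medians of the cytosolic genes were 0.18 and 0.11, with none past the threshold by limma and 14 and 8 higher at an unadjusted p under 0.05, where 8.29% and 6.4% of all genes were. Without Tfam control replicate 3 the Tfam median was 0.25 and 40 of the 79 passed as higher, where 3.43% of all genes did, and without Cox10-deficient replicate 3 the Cox10 median was 0.04 with none past the threshold. No test compared these lists with each other.

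**Figure D4:**
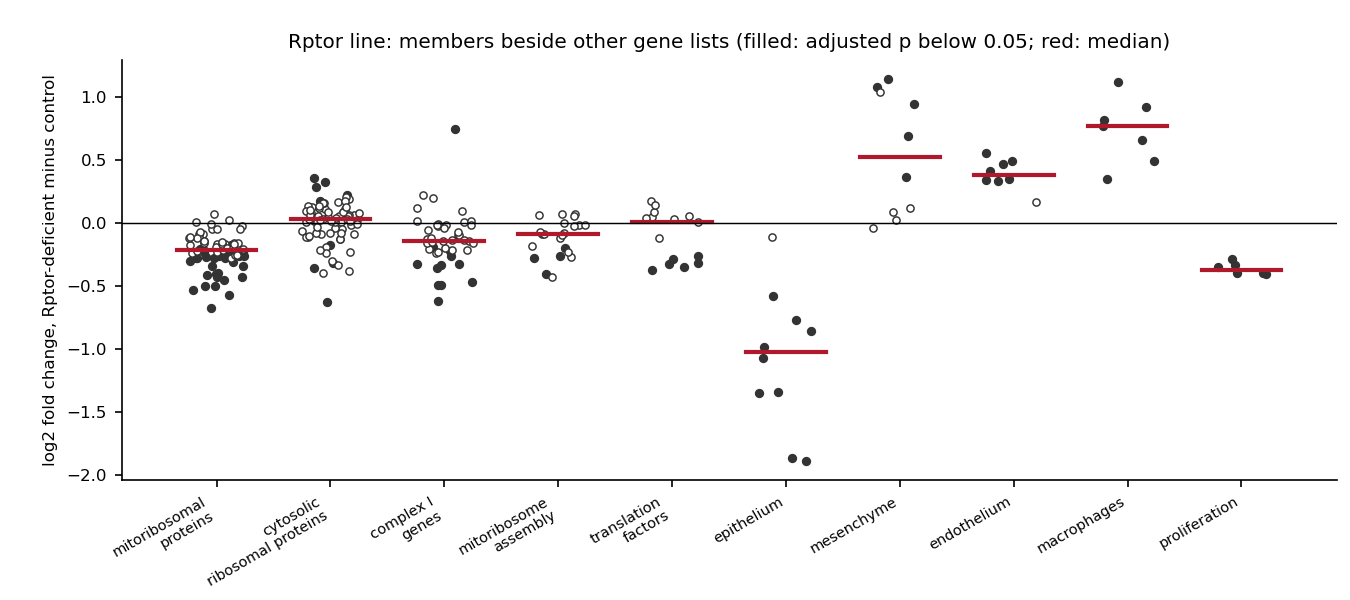
Log2 fold change in the Rptor line, deficient minus control (y axis), of the members and of 9 other gene lists (x axis). Each circle is a gene, filled if its adjusted p was below 0.05, and red bars are medians; the members have a median of -0.21, cytosolic ribosomal proteins 0.03 and epithelial markers -1.03.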

How the data were processed

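Normalised read counts (a signal per gene) came from 3 deposited tables of 6 whole lungs each; the authors divided gene counts by a size factor for each sample. The submitters' processing notes name Trim Galore, HISAT2, featureCounts, DESeq2 and mm10, and how reads of overlapping genes or of several places were counted is not given in the sources used here. Columns of the authors' own fold changes and p-values were not used. Every value was a whole multiple (within 0.1) of a step of 0.978 to 1.02 per sample, so reads could be recovered (27673878 to 29702682 per sample). From each of the tables, entries with a repeated symbol, 4 in number, were dropped. Genes with a value of at least 10 in at least 3 of 6 samples were tested on log2(value + 1), two-sided, with limma 3.58.1 in R 4.3.3 (lmFit, eBayes with trend), adjusted by Benjamini-Hochberg over all genes tested. Fold changes on this scale understate those of low genes. Line differences were contrasts in 1 fit of 18 samples. Alternatives were other filters, a pseudocount of 0.1, equal totals, TMM, edgeR 4.0.16 and DESeq2 1.42.0 on recovered reads, 1 joint fit, each sample left out, and, added after seeing the data, GC and length correction. Same-numbered Rptor samples deviated together (correlations 0.221, 0.330 and 0.259), so the numbers were taken to pair the samples there. No label pairs them, so this pairing came from the same values that were then tested. Genes named are the 6 largest changes each way per line among those past the threshold (which only falls in the Rptor line supplied), up to 6 line differences per pair, the 3 highest and lowest per kilobase, 8 landmark members and up to 6 genes of the other mitochondrial translation lists. Further genes, such as Mrps36, Mrps18a, Mrps18c, Mrpl48, Mrps26, Mrpl24 and Mrpl27, were named after their values were seen. Members and lists were chosen with earlier results of these data known. Gene lengths and coordinates are from GENCODE vM21 and promoters from RefSeq (GRCm38.p6), the same assembly as mm10. The test was tried on simulated data. Figures were drawn with matplotlib 3.10.9.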

Additional observations from a re-analysis of the deposited data

Results flagged for a closer look

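Members whose fold changes differed between lines are listed because the difference itself passed the test. The test was a limma contrast at an adjusted p below 0.05, with 3 lungs in each of 4 groups. The fold change in the Rptor line minus that in the Tfam line, on the log2 scale, was -0.73 for Mrpl16, -0.58 for Mrps18b, -0.54 for Mrpl47, -0.52 for Mrps22, -0.48 for Mrpl36, -0.42 for Mrps34, -0.40 for Mrpl22, -0.39 for Mrpl12 and -0.36 for Mrpl19. Against the Cox10 line the difference was -0.63 for Mrpl16, -0.48 for Mrpl36, -0.45 for Mrpl22, -0.44 for Mrpl42 and -0.28 for Mrpl4. Mrpl16, Mrpl36 and Mrpl22 differed from both other lines. With GC and length correction Mrpl22 passed against neither, at -0.32 and -0.41 (adjusted p = 0.107 and 0.0516 by limma). Without 1 lung, the difference from the Tfam line was lost in 1 or more fits for each gene but Mrpl16, Mrpl36 and Mrps18b, and that from the Cox10 line for Mrpl4. Groups of 3 were too small for the check of single samples that stand apart.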

How the results depend on the processing

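The 35 members lower in Rptor-deficient lungs numbered 31 to 44 under the other filters, scalings, pseudocount, tests and fits. These were 40.8% to 57.9% of the members, where 13.5% to 21.7% of all genes were lower. At an adjusted p below 0.01 they numbered 14 (18.4%, against 9.8% of all genes). Without 1 lung they numbered 21 to 33 (27.6% to 43.4%), where 12.8% to 18.9% of all genes were lower. With the replicate number as a block, all 35 were among the 42 called, and Mrpl2, Mrpl49, Mrps2, Mrps10, Mrps11, Mrps12 and Mrps15 were gained. For the median log2 change of the members, the range was -0.24 to -0.18 for Rptor, -0.05 to -0.04 for Cox10 and -0.04 to 0.08, on both sides of 0, for Tfam. In the Tfam line 1 member was lower with the block (Mrpl4), 1 with GC and length correction (Mrps36) and 2 with both, and without 1 lung 0 to 2 were higher and 0 to 2 lower. Members that differed between the Rptor and Tfam lines numbered 15 with the block and 4 to 27 without 1 lung. The latter were 5.26% to 35.5% of the members, where 3.49% to 9.39% of all genes were lower. Between the Rptor and Cox10 lines 8 members differed with the block and 4 to 9 without 1 lung. The latter were 5.26% to 11.8%, where 2.72% to 6.28% of all genes were lower. With GC and length correction the Mrpl22 differences, -0.32 from the Tfam line and -0.41 from the Cox10 line, did not pass. The cause of these changes was not tested. Replicate numbers were not taken to pair the Tfam samples (correlations -0.312, -0.207 and 0.151) or the Cox10 samples (0.447, 0.202 and 0.0487). The block fits used them in those lines all the same.

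Changes near 0 turned sign when 1 lung was left out. In the Tfam line Mrpl16 ran from -0.0114 to 0.17 and Mrps22 from -0.0588 to 0.0898, in the Cox10 line Mrpl42 ran from -0.0482 to 0.0288 and Mrpl47 from -0.0538 to 0.0407 (0.00113 with equal totals), and in the Rptor line Mrpl10 ran from -0.0873 to 0.0268. Of 36 changes of the other named genes in the Tfam and Cox10 lines, 15 turned sign under 1 or more settings. With 3 lungs a group, the smallest fall called among the members was -11.3%, and a member that did not pass is not shown to be unchanged.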
